A study of Rattus norvegicus with 12 samples.

Results

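Expression in the infarcted LV was compared between 4 rats treated with the illuminated algal patch (iCarP+/Light+) and 4 rats with an untreated infarction (MI), over the protein-coding genes of the count table. All genes of that type with enough reads were taken, which was 13660 of the 22250 listed, and the other 8590 had too few counts for a test. Both groups were male Sprague-Dawley rats with the left anterior descending coronary artery tied, and the tissue was taken from the infarct region 1 day after surgery. MI rats received nothing further. In iCarP+/Light+ rats, the infarcted wall was injected with Chlorella, an alga of single cells that makes oxygen under light. A flexible light-guiding patch was then glued over it with a gel and lit with the chest closed. The alga, the patch, the adhesive, the injection and the light therefore differed together and cannot be told apart here, and treated hearts kept in the dark were not analysed here. A Sham group of 4 rats, with thoracotomy and no ligation, is given beside the infarcted groups as an operated control, also taken 1 day after surgery. The study's methods give 6 weeks of age for the rats of its illumination demonstration and no age for the infarction experiment. Whether tissue of several rats was pooled is not given in the sources used here.

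Ligation starves the muscle of oxygen and kills it within hours. Dying cells release danger signals that act on Toll-like receptors and the interleukin-1 receptor, NF-κB is switched on, and chemokines draw neutrophils and then monocytes out of the blood. Cells that survive without oxygen keep the HIF factors, which are otherwise marked for degradation by oxygen-dependent prolyl hydroxylases, and HIF switches on glucose uptake, glycolysis and signals to blood vessels. The treatment was designed to supply oxygen, so genes of oxygen shortage and of inflammation take the most room here.

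Reads counted on genes numbered 14898054 to 16923619 per MI rat and 14064414 to 16775369 per iCarP+/Light+ rat. Mitochondrial genes took 8.52 to 11.5% of the counts of MI rats and 7.14 to 14.2% of those of treated rats, with overlap (two-sided exact permutation test, p = 0.943). The TMM factors, which correct for a few abundant genes taking reads from the rest, ranged from 1.15 to 1.26 among MI rats and from 0.960 to 1.05 among treated ones, without overlap (exact permutation test, p = 0.0286, the smallest that 4 rats against 4 can give). Values below are TMM-normalized CPM, the counts of a gene scaled to a common library size, and per-rat values are listed in the order of rats 1, 3, 4 and 5 for MI and 1, 2, 4 and 5 for iCarP+/Light+. All 5 cardiomyocyte markers (Tnnt2, Myh6, Actc1, Ryr2, Myl2) were present, with a summed level of 30762 to 34186 CPM in Sham, 1868 to 3318 CPM in MI and 1267 to 3798 CPM in iCarP+/Light+ rats. Both infarcted groups were thus far below Sham in muscle transcripts and overlapped each other. In such bulk samples, fewer cells of a type and less RNA per cell cannot be told apart.

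The treated infarct differed from the untreated one mainly by genes that were higher. In edgeR's quasi-likelihood test with Benjamini-Hochberg adjustment, 1544 protein-coding genes (11.3% of those tested) rose from MI to iCarP+/Light+ and 285 (2.09%) fell, at an adjusted p below 0.05. The rises were also larger. The median log2 fold change was 1.01 among the genes that rose and -0.70 among those that fell, and 287 genes rose by 4-fold or more against 6 that fell by as much. At least 16-fold was reached by 52 genes. The iCarP+/Light+ rats lay wholly above the MI rats in 1326 of the genes that rose and wholly below them in 245 of those that fell. Over all 13660 genes tested, called or not, they lay wholly above in 1590 and wholly below in 619. For scale, the injury itself, MI against Sham, moved 4195 genes up (30.7%) and 4651 down (34.0%). The split of the treatment effect depended on the scaling. Scaled by total counts alone, which leaves the difference in TMM factors uncorrected, 1017 genes were higher and 2637 lower, and the median of all protein-coding genes was -0.26 in place of 0.0043 on the log2 scale. With DESeq2's size factors, 1371 were higher and 434 lower. Changes below are relative to the TMM scale. The counts also rested on single rats. Without iCarP+/Light+ rat 5, 971 genes were higher, and 149 were lower without MI rat 1 and 145 without iCarP+/Light+ rat 2.

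**Figure D1:**
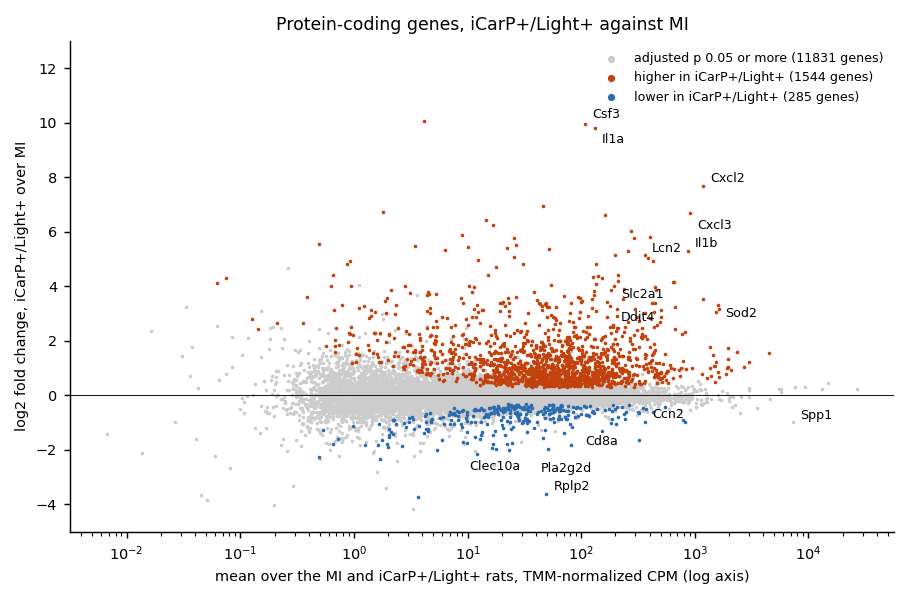
Each point is a protein-coding gene, with its mean level over the 8 infarcted rats in TMM-normalized CPM on a log axis against its log2 fold change from MI to iCarP+/Light+. The 1544 genes that rose reach 9.95 (Csf3) among genes with a mean of 5 CPM or more, while of the 285 that fell only 6 are 4-fold or more down.

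Genes were grouped in 59 lists drawn up by pathway or cell type, with 1067 symbols, of which 49 were not matched and 61 genes had too few counts to be tested. Some genes are in several lists, such as Lcn2 (iron and neutrophil lists) and Mmp9 (neutrophil and metalloproteinase lists), so the lists are not separate results. The share of members called in each list is read against the 11.3% of all genes that rose and the 2.09% that fell. The largest list medians belonged to neutrophil genes (3.37) and to NF-κB pathway genes (2.33), and the smallest to markers of resident macrophages (-0.59), where the median of all protein-coding genes tested was 0.0043.

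**Figure D2:**
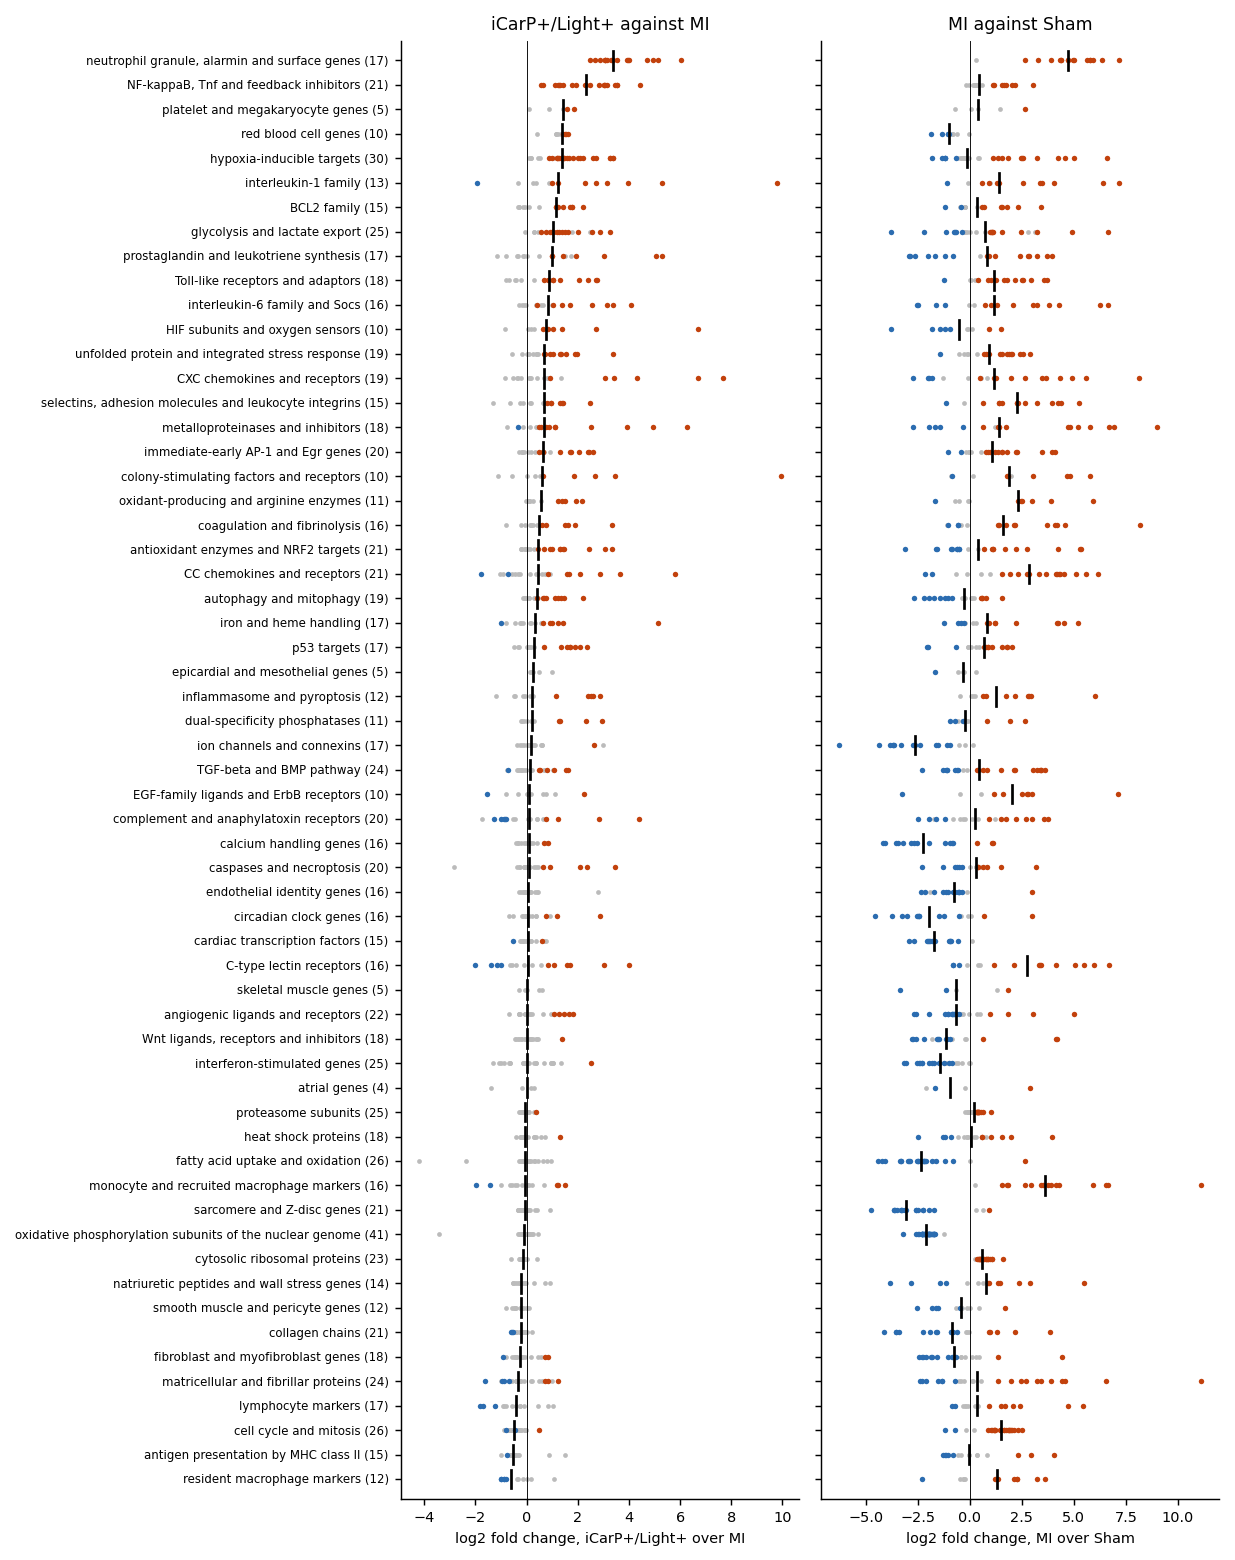
Each row is a gene list with the number of tested members in parentheses, and each point is a member's log2 fold change, iCarP+/Light+ over MI on the left and MI over Sham on the right. Red and blue points passed an adjusted p of 0.05 upward and downward, grey points did not, the black bar is the list's median, and both panels share the MI rats. The medians of the sarcomere and oxidative phosphorylation lists lie well to the left of 0 in the right panel (-3.07 and -2.10) and near 0 in the left one (-0.08 and -0.10).

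Among genes with a mean of 5 CPM or more, the highest log2 fold changes were those of cytokine and chemokine ligands. Csf3 encodes G-CSF, the growth factor that releases neutrophils from bone marrow. It was 0.192, 0, 0.615 and 0.0532 CPM in the MI rats and 189, 211, 242 and 225 CPM in the iCarP+/Light+ rats, and it was at 0 in every Sham rat. Csf3 rose, with a log2 fold change of 9.95 (standard error 0.46, edgeR adjusted p = 1.77e-06). All iCarP+/Light+ rats were far above all MI rats, whose 4 libraries together held 16 reads, so the size of the fold rests on few reads. Il1a, an alarmin of the interleukin-1 family, was 0.239, 0.216, 0.727 and 0 CPM in the MI rats and 232, 181, 272 and 369 CPM in the iCarP+/Light+ rats. Il1a was higher, at a log2 fold change of 9.79 (standard error 0.54, edgeR adjusted p = 1.77e-06). It was as low in the untreated infarct as in Sham rats (0 to 0.369 CPM), with an MI over Sham log2 fold change of 0.96 that did not pass the test. Il1b, the main interleukin-1 of inflammasome activation, was 35.9, 41.2, 64 and 30.5 CPM in the MI rats and 1132, 1375, 1826 and 2430.1 CPM in the iCarP+/Light+ rats. Il1b rose by a log2 change of 5.30 (standard error 0.34, edgeR adjusted p = 1.77e-06). Here the infarct alone had already raised the level from 1.91 to 3.98 CPM in Sham rats, and the treated rats were higher again without overlap. Il1rn, the secreted antagonist of the same receptor, was 210.3 to 479 CPM in MI and 1785 to 3704 CPM in iCarP+/Light+ rats. Il1rn rose, with a log2 fold change of 3.16 (standard error 0.34, edgeR adjusted p = 5.03e-05). Of the interleukin-1 family list, 8 of 13 tested members rose, among them the receptor subunit Il1rap (2.69), and 1 fell. The one that fell was Il18, a cytokine activated by the same inflammasomes. It was 29.9, 19.6, 35.7 and 18.8 CPM in the MI rats and 8.64, 6.59, 4.47 and 7.53 CPM in the iCarP+/Light+ rats. Il18 fell, with a log2 fold change of -1.93 (standard error 0.29, edgeR adjusted p = 0.000633). Il18 overlaps Bco2 and Tex12 in the table, and how reads on both were shared is not given in the sources used here.

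Cxcl1, Cxcl2 and Cxcl3, which are CXC ligands that attract neutrophils through Cxcr2, all rose. Cxcl1 was 13.7, 13.6, 18 and 12.4 CPM in the MI rats and 220.3, 224, 286 and 421 CPM in the iCarP+/Light+ rats. Cxcl1 rose by a log2 change of 4.32 (standard error 0.26, edgeR adjusted p = 1.77e-06). Cxcl2 was 15.4, 11.1, 16.4 and 3.35 CPM in the MI rats and 1806, 1711, 2479.6 and 3441 CPM in the iCarP+/Light+ rats. Cxcl2 rose, with a log2 fold change of 7.67 (standard error 0.50, edgeR adjusted p = 1.77e-06). Cxcl3 was 28.2, 16, 21.9 and 3.3 CPM in the MI rats and 1436, 1424, 1765 and 2502 CPM in the iCarP+/Light+ rats. Cxcl3 was higher, at a log2 fold change of 6.68 (standard error 0.56, edgeR adjusted p = 7.54e-06). MI rat 5 was the lowest of its group for all 3, and every iCarP+/Light+ rat was far above every MI rat. In the Sham hearts these ligands were at 0.590 to 1.73 CPM, 0.0683 to 0.380 CPM and 0 to 0.145 CPM.

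In all, 6 of 19 tested members rose and 0 fell in the list of CXC chemokines and receptors. Among CC chemokines and receptors, 7 of 21 rose and 2 fell. Ccl3, a macrophage inflammatory protein, was 23.1, 9.49, 16.6 and 7.55 CPM in the MI rats and 518, 584, 1022 and 1068 CPM in the iCarP+/Light+ rats. Ccl3 rose by a log2 change of 5.81 (standard error 0.43, edgeR adjusted p = 3.49e-06). An antisense gene lies over it in the table. Ccl4, its close relative, was 4.73 to 20 CPM in MI and 90.8 to 157 CPM in iCarP+/Light+ rats. Ccl4 rose, with a log2 fold change of 3.65 (standard error 0.39, edgeR adjusted p = 4.52e-05). Ccr1, a receptor that binds Ccl3, was 80.6 to 124 CPM in MI and 262 to 580.3 CPM in iCarP+/Light+ rats. Ccr1 was higher, at a log2 fold change of 2.09 (standard error 0.23, edgeR adjusted p = 6.55e-05). Ccl2, the ligand that draws monocytes, was 223 to 512 CPM in MI and 615 to 879 CPM in iCarP+/Light+ rats. Ccl2 rose by a log2 change of 0.83 (standard error 0.22, edgeR adjusted p = 0.0219). From Sham to MI it had risen by 5.61 on the log2 scale. Ccl2 was not called without MI rat 3 or iCarP+/Light+ rat 5. Cx3cr1, a chemokine receptor of monocytes and macrophages, was 35.3, 37.6, 20.2 and 45.3 CPM in the MI rats and 13.8, 8.22, 10.2 and 8.44 CPM in the iCarP+/Light+ rats. Cx3cr1 fell, with a log2 fold change of -1.77 (standard error 0.28, edgeR adjusted p = 0.00083).

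**Figure D3:**
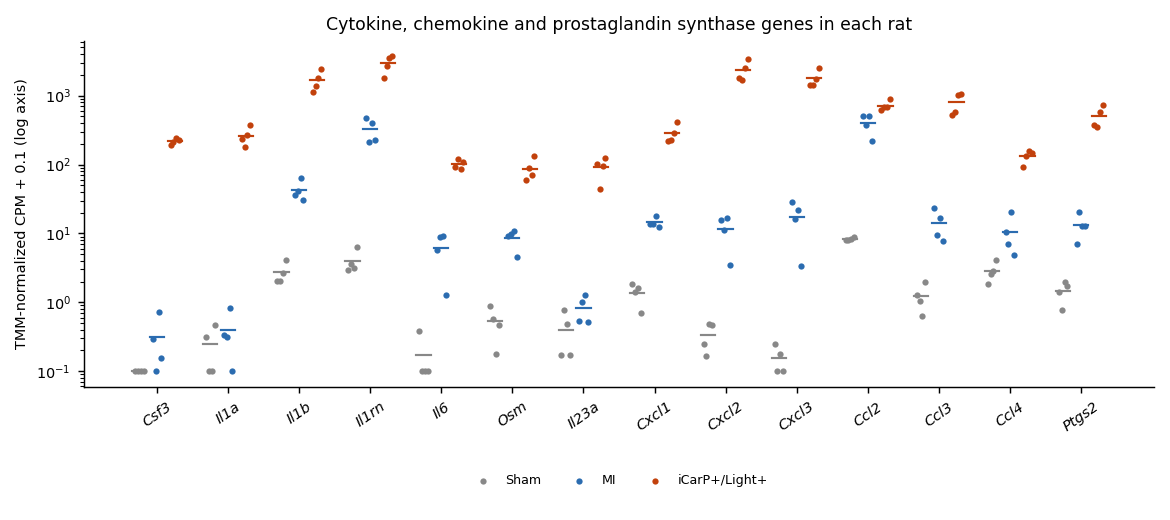
TMM-normalized CPM plus 0.1 on a log axis for every rat of the 3 groups, with a bar at the group mean. For the ligands plotted and for Ptgs2, every iCarP+/Light+ rat lies above every MI rat, and Ccl2 has the smallest distance between these groups.

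Of the interleukin-6 family and the Socs genes, which shut off its signal, 8 of 16 tested rose and 0 fell. Il6 was 5.55, 8.68, 9.12 and 1.17 CPM in the MI rats and 93.4, 119.8, 85.4 and 110.4 CPM in the iCarP+/Light+ rats. Il6 was higher, at a log2 fold change of 4.06 (standard error 0.46, edgeR adjusted p = 7.22e-05). Osm, the oncostatin M ligand made by leukocytes, was 9.0, 9.66, 10.9 and 4.42 CPM in the MI rats and 58.8, 88.6, 69.9 and 132 CPM in the iCarP+/Light+ rats. Osm rose by a log2 change of 3.36 (standard error 0.34, edgeR adjusted p = 3.12e-05). Socs3, the feedback inhibitor that Stat3 induces, was 63.9, 66.2, 60 and 49.7 CPM in the MI rats and 296, 532, 714 and 597 CPM in the iCarP+/Light+ rats. Socs3 rose, with a log2 fold change of 3.16 (standard error 0.24, edgeR adjusted p = 4.44e-06). Stat3 itself moved by 0.40 (adjusted p = 0.0203, edgeR), and lost this call in 3 of the 8 fits that left out a rat. Il23a, a subunit of interleukin-23, was 0.431, 0.917, 1.17 and 0.426 CPM in the MI rats and 101, 43.9, 95.1 and 126 CPM in the iCarP+/Light+ rats. Il23a was higher, at a log2 fold change of 6.96 (standard error 0.46, edgeR adjusted p = 1.77e-06). For these 3 ligands and Socs3, no treated rat was within the range of the MI rats. Of the colony-stimulating factors and receptors 5 of 10 rose and 0 fell, including the receptor of G-CSF, Csf3r (116 to 154 CPM in MI and 373 to 1194 CPM in iCarP+/Light+ rats), and the shared β chain Csf2rb (158 to 216 CPM in MI and 436 to 1001 CPM in iCarP+/Light+ rats).

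Every tested member of the NF-κB list rose, 21 of 21, with a median log2 fold change of 2.33 and a range of 0.57 to 4.42. In the untreated infarct the same list had a median of 0.44 over Sham, with 8 members higher. NF-κB switches on genes of its own inhibitors, which this list includes. Nfkbia, the cytoplasmic inhibitor IκBα, was 98.9, 120.2, 106 and 84.8 CPM in the MI rats and 493, 796, 998 and 1307 CPM in the iCarP+/Light+ rats. Nfkbia rose by a log2 change of 3.13 (standard error 0.25, edgeR adjusted p = 5.96e-06). Its level in MI rats overlapped that in Sham rats (68 to 88 CPM), with an MI over Sham log2 fold change of 0.38 that did not pass the test. Nfkbiz, a nuclear IκB that promotes a second wave of targets, was 33.7, 39.5, 43.1 and 32.2 CPM in the MI rats and 240.4, 457, 469 and 552 CPM in the iCarP+/Light+ rats. Nfkbiz rose, with a log2 fold change of 3.53 (standard error 0.23, edgeR adjusted p = 1.77e-06). Zc3h12a, the nuclease that degrades cytokine transcripts, was 20.5, 23.4, 20 and 21.5 CPM in the MI rats and 99.2, 195, 193 and 213 CPM in the iCarP+/Light+ rats. Zc3h12a was higher, at a log2 fold change of 3.04 (standard error 0.20, edgeR adjusted p = 1.94e-06). The adaptor Traf1 was 5.8 to 9.73 CPM in MI and 40.3 to 76.7 CPM in iCarP+/Light+ rats. Traf1 rose by a log2 change of 3.01 (standard error 0.22, edgeR adjusted p = 3.49e-06). Tnf itself was detected at 0.144, 0.0539, 0 and 0 CPM in the MI rats and 1.25, 0.786, 1.15 and 1.9 CPM in the iCarP+/Light+ rats. Tnf rose, with a log2 fold change of 4.42 (standard error 0.71, edgeR adjusted p = 0.000974). This level was carried by 4 reads in the 4 MI libraries and 77 in the 4 treated ones. Of the Toll-like receptors and adaptors 9 of 18 rose and 0 fell. They included Tlr2 (106 to 168 CPM in MI and 374 to 841 CPM in iCarP+/Light+ rats), the kinase Irak2 (13.3 to 26.2 CPM in MI and 66.7 to 188 CPM in iCarP+/Light+ rats) and its inhibitory relative Irak3 (14.1 to 17.6 CPM in MI and 52.8 to 128 CPM in iCarP+/Light+ rats). Of the inflammasome list 5 of 12 rose, among them the sensors Nlrp3 (2.51), Nlrc4 (2.58) and Mefv (2.88), while the median of the list was 0.20.

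Promoters of a few of these genes are shown because they carry the motif of the factor that the lists are built around. Each is the 300 bases from 250 before to 50 after the RefSeq start of the gene, in build GRCr8 and on the minus strand, written 5′ to 3′, with the κB motif in capitals. Cxcl1 lies at chr14:17479272-17479571, Cxcl2 at chr14:17467206-17467505 and Nfkbia at chr6:78597023-78597322.
Cxcl1: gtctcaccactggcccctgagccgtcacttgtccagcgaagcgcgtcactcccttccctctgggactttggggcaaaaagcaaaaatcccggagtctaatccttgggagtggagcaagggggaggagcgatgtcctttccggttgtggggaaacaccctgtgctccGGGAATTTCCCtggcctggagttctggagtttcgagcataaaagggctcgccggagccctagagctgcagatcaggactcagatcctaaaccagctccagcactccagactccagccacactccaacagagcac
Cxcl2: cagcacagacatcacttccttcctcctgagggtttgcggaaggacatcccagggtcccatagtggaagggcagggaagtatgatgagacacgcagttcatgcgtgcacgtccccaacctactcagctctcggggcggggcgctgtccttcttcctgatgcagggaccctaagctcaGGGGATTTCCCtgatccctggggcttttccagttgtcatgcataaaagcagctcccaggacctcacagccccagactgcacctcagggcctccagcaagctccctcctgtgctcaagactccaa
Nfkbia: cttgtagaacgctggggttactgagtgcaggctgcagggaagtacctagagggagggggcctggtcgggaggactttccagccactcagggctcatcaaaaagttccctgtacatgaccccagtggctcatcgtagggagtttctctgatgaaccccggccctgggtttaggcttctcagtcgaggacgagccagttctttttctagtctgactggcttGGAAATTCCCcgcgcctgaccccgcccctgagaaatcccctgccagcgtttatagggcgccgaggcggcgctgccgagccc

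The motif begins at position -84 from the start in Cxcl1, at -74 in Cxcl2 and at -31 in Nfkbia. On either strand, it was found in 7.51% of all 33469 promoter entries of this length. With each gene taken once, it was found in 10 of 19 promoters of the NF-κB list and in 5 of 18 of the CXC list. A match is a description of the letters and shows no binding in these hearts.

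Some genes of prostaglandin synthesis rose as well, and so did Acod1 and Hcar2. Ptgs2, the inducible cyclooxygenase, was 6.94, 20, 12.9 and 12.5 CPM in the MI rats and 371, 346, 573 and 733 CPM in the iCarP+/Light+ rats. Ptgs2 was higher, at a log2 fold change of 5.27 (standard error 0.37, edgeR adjusted p = 3.13e-06). Ptges, the prostaglandin E synthase coupled to it, was 1.24, 2.59, 1.73 and 0.372 CPM in the MI rats and 33.4, 68.1, 38.2 and 59.9 CPM in the iCarP+/Light+ rats. Ptges rose by a log2 change of 5.07 (standard error 0.48, edgeR adjusted p = 2.01e-05). Hpgds, which makes prostaglandin D, was 0.431 to 1.4 CPM in MI and 3.19 to 13.9 CPM in iCarP+/Light+ rats. Hpgds rose, with a log2 fold change of 3.03 (standard error 0.47, edgeR adjusted p = 0.000746). Its MI over Sham log2 fold change was -1.69. In the whole prostaglandin and leukotriene list, 7 of 17 tested members rose and 0 fell. Acod1, the mitochondrial enzyme that makes itaconate in activated myeloid cells, was 2.63, 2.7, 5.93 and 1.76 CPM in the MI rats and 149.7, 317, 376 and 435 CPM in the iCarP+/Light+ rats. Acod1 was higher, at a log2 fold change of 6.62 (standard error 0.43, edgeR adjusted p = 1.77e-06). It lies within Mycbp2 in the table. Hcar2, the receptor for niacin and β-hydroxybutyrate, was 6.51, 11.6, 9.73 and 5.21 CPM in the MI rats and 214, 418, 698 and 828 CPM in the iCarP+/Light+ rats. Hcar2 rose by a log2 change of 6.03 (standard error 0.45, edgeR adjusted p = 3.49e-06).

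Of the oxidant-producing and arginine enzymes 5 of 11 rose, with Rac2 (2.18), Ncf1 (1.24) and Ncf4 (1.38) of the phagocyte oxidase, whereas its catalytic subunit Cybb did not pass the test. Cybb was at 321 to 446 CPM in MI and 308 to 593 CPM in iCarP+/Light+ rats. Cybb had a log2 fold change of 0.27 (standard error 0.24, edgeR adjusted p = 0.547). Of the adhesion list 7 of 15 rose and 0 fell, and 4 rose without iCarP+/Light+ rat 5. Icam1, the integrin ligand on activated endothelium, was 34 to 52.8 CPM in MI and 89.6 to 146 CPM in iCarP+/Light+ rats. Icam1 was higher, at a log2 fold change of 1.41 (standard error 0.18, edgeR adjusted p = 0.000157). Itgax, whose locus overlaps Itgad, was 53.6 to 95.9 CPM in MI and 153 to 204 CPM in iCarP+/Light+ rats. Itgax rose by a log2 change of 1.32 (standard error 0.18, edgeR adjusted p = 0.000354).

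Metalloproteinases cut the matrix, and 10 of 18 tested members rose and 1 fell in their list. Mmp9, the gelatinase stored in neutrophil granules, was 22.6, 29.8, 30.2 and 27 CPM in the MI rats and 443, 682, 956 and 1254 CPM in the iCarP+/Light+ rats. Mmp9 rose, with a log2 fold change of 4.93 (standard error 0.35, edgeR adjusted p = 3.13e-06). Mmp8, the neutrophil collagenase, was 36.6, 20.7, 34.5 and 26.8 CPM in the MI rats and 301, 537, 298 and 652 CPM in the iCarP+/Light+ rats. Mmp8 was higher, at a log2 fold change of 3.91 (standard error 0.35, edgeR adjusted p = 1.21e-05). Mmp13, another collagenase, was 0.814, 0.216, 0.447 and 0.213 CPM in the MI rats and 31.4, 14.7, 53.4 and 33.9 CPM in the iCarP+/Light+ rats. Mmp13 rose by a log2 change of 6.25 (standard error 0.61, edgeR adjusted p = 2.77e-05). Its MI level stood on 33 reads and overlapped the Sham level, and the treated rats were above both. Timp1, the inhibitor of these enzymes, was at 371 to 604 CPM in MI and 580.1 to 746 CPM in iCarP+/Light+ rats. Timp1 rose, with a log2 fold change of 0.55 (standard error 0.16, edgeR adjusted p = 0.0369). Its groups overlapped slightly, and it lost its call in 6 of the 8 fits that left out a rat. Without iCarP+/Light+ rat 5, 6 members of the list rose.

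In the complement list 4 of 20 rose and 5 fell, so it changed in both directions. C3, the central component, was 26.8, 15.9, 17.8 and 15 CPM in the MI rats and 173, 575, 387 and 471 CPM in the iCarP+/Light+ rats. C3 was higher, at a log2 fold change of 4.41 (standard error 0.41, edgeR adjusted p = 2.05e-05). The surface inhibitor Cd55 was 9.15 to 18.6 CPM in MI and 59.9 to 155 CPM in iCarP+/Light+ rats. Cd55 rose by a log2 change of 2.84 (standard error 0.29, edgeR adjusted p = 3.37e-05). The initiating chains C1qa and C1qc and the receptor C3ar1 fell. C3ar1 was 42.4 to 86.1 CPM in MI and 22.2 to 32.8 CPM in iCarP+/Light+ rats. C3ar1 fell, with a log2 fold change of -1.27 (standard error 0.27, edgeR adjusted p = 0.00666).

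Transcripts of neutrophils were the most strongly raised cell-type group. Of the 24 symbols of the neutrophil list, 17 had enough counts, and these 17 rose, by 2.47 to 6.03 on the log2 scale with a median of 3.37, after a median rise of 4.71 from Sham to MI. With at least 10 counts asked of every rat, Sham included, 5 of these genes stayed in the test and 5 rose. The 5 neutrophil markers (S100a8, S100a9, Csf3r, Cxcr2, Mmp8) all rose, and none was at 0. Their summed level was 6.36 to 11.2 CPM in Sham, 323 to 626 CPM in MI and 2179.9 to 6577 CPM in iCarP+/Light+ rats. Treated rat 1 had the lowest of the treated sums and rat 5 the highest. Slpi, a protease inhibitor that neutrophils and epithelia secrete, was 192, 269, 615 and 114 CPM in the MI rats and 1038, 4321, 2418 and 3954 CPM in the iCarP+/Light+ rats. Slpi was higher, at a log2 fold change of 3.30 (standard error 0.58, edgeR adjusted p = 0.00193). Lcn2, a siderophore-binding protein of neutrophil granules, was 14.4, 28.3, 16.7 and 20.9 CPM in the MI rats and 409, 493, 1046 and 863 CPM in the iCarP+/Light+ rats. Lcn2 rose by a log2 change of 5.13 (standard error 0.37, edgeR adjusted p = 3.48e-06). The MI rats overlapped the Sham rats (11.2 to 20.9 CPM). Stfa2l1, a stefin-like inhibitor, was 0.0539 to 0.783 CPM in MI and 7.58 to 66.5 CPM in iCarP+/Light+ rats. Stfa2l1 rose, with a log2 fold change of 6.42 (standard error 0.83, edgeR adjusted p = 0.000624). The 4 MI libraries held 25 of its reads. Tcp11 was 0.0539 to 0.839 CPM in MI and 5.76 to 25.2 CPM in iCarP+/Light+ rats. Tcp11 was higher, at a log2 fold change of 5.88 (standard error 0.71, edgeR adjusted p = 0.000403). LOC497963, which overlaps Lgals5, was 5.0 to 20.8 CPM in MI and 213 to 978 CPM in iCarP+/Light+ rats. LOC497963 rose by a log2 change of 5.78 (standard error 0.55, edgeR adjusted p = 2.19e-05). Many of the cytokine, prostaglandin, lectin, adhesion, protease and hypoxia genes in this comparison are also expressed by neutrophils, and the part of the neutrophil markers in those results was not tested.

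**Figure D4:**
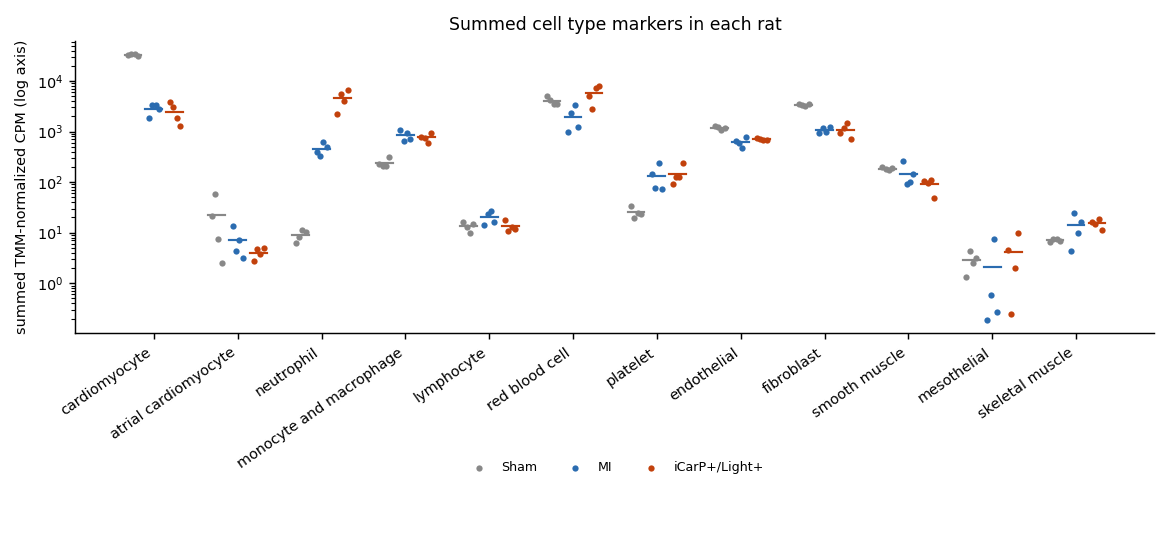
Summed TMM-normalized CPM of the fixed markers of 12 cell types on a log axis, 1 point per rat and a bar at the group mean. The neutrophil sum separates the iCarP+/Light+ from the MI rats, whereas the cardiomyocyte, monocyte and macrophage, endothelial and fibroblast sums overlap between them.

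Markers of monocytes and macrophages as a whole did not separate the groups. The summed level of Cd68, Csf1r, Adgre1, Cd14 and C1qa was 658 to 1052 CPM in MI and 588 to 950.2 CPM in iCarP+/Light+ rats, which overlapped. Of the monocyte and recruited macrophage list 3 of 16 rose and 2 fell, where infarction alone had raised 15. Without iCarP+/Light+ rat 5, 1 rose and 4 fell, and 1 rose without MI rat 5. Trem2, a lipid receptor of macrophages that clear debris, was 15.2 to 24.4 CPM in MI and 4.08 to 10.4 CPM in iCarP+/Light+ rats. Trem2 fell, with a log2 fold change of -1.45 (standard error 0.29, edgeR adjusted p = 0.00431). Adgre1, which encodes F4/80, was 12.7 to 25.6 CPM in MI and 33.1 to 59 CPM in iCarP+/Light+ rats. Adgre1 was higher, at a log2 fold change of 1.19 (standard error 0.26, edgeR adjusted p = 0.00753). Spp1, the osteopontin gene, had risen by 11.12 on the log2 scale from Sham to MI. It was 11809, 7974, 14168 and 4653 CPM in the MI rats and 8337, 2989, 3812 and 4345 CPM in the iCarP+/Light+ rats. Spp1 had a log2 fold change of -0.99 (standard error 0.36, edgeR adjusted p = 0.0968), which did not pass the test. In the resident macrophage list 5 of 12 fell, against 2.09% of all genes, and 0 rose. This count was 3 without MI rat 1, 3 without iCarP+/Light+ rat 2 and 2 without iCarP+/Light+ rat 4. Folr2, a folate receptor of tissue macrophages, was 109.6, 59.3, 103 and 70 CPM in the MI rats and 44.1, 45.5, 44.4 and 53.5 CPM in the iCarP+/Light+ rats. Folr2 fell, with a log2 fold change of -0.87 (standard error 0.19, edgeR adjusted p = 0.00857). C1qa was 41.1 to 65.4 CPM in MI and 18.4 to 34 CPM in iCarP+/Light+ rats. C1qa fell, with a log2 fold change of -0.99 (standard error 0.23, edgeR adjusted p = 0.0103). C1qc was 58.9 to 78 CPM in MI and 25.1 to 52.2 CPM in iCarP+/Light+ rats. C1qc fell, with a log2 fold change of -0.87 (standard error 0.22, edgeR adjusted p = 0.0164). C1qc was not called without iCarP+/Light+ rat 4. The Sham levels of 54.3 to 97.1 CPM and 77.1 to 125 CPM overlapped those of the MI rats. F13a1, the member of the list with the highest counts, was at 88 to 354 CPM in MI and 142 to 281 CPM in iCarP+/Light+ rats. F13a1 had a log2 fold change of 0.16 (standard error 0.36, edgeR adjusted p = 0.83).

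Among the 12 genes with the lowest log2 fold changes by the rule for named genes were several receptors of macrophages and lymphocytes. Clec10a, a galactose-binding lectin of macrophages and dendritic cells, was 54.7, 37.2, 36.5 and 20.8 CPM in the MI rats and 9.83, 10.3, 10 and 6.54 CPM in the iCarP+/Light+ rats. Clec10a fell, with a log2 fold change of -2.02 (standard error 0.26, edgeR adjusted p = 0.000202). Pla2g2d, a secreted phospholipase that restrains inflammation, was 140.3, 75.2, 51.9 and 57.5 CPM in the MI rats and 18.5, 22.5, 24.2 and 18.1 CPM in the iCarP+/Light+ rats. Pla2g2d fell, with a log2 fold change of -1.96 (standard error 0.27, edgeR adjusted p = 0.000345). Tnfrsf11a, the RANK receptor, was 43.9, 24.7, 44.6 and 38.7 CPM in the MI rats and 13.8, 9.73, 10.6 and 10.9 CPM in the iCarP+/Light+ rats. Tnfrsf11a fell, with a log2 fold change of -1.75 (standard error 0.18, edgeR adjusted p = 4.15e-05). Sham levels of these 3 genes were 22.2 to 34 CPM, 12.1 to 16.6 CPM and 7.3 to 8.26 CPM, so the treated rats were below Sham in Clec10a and remained above it in the other two. The lectin list moved in both directions, with 6 of 16 rising, such as Clec4e (14.6 to 36 CPM in MI and 263 to 479 CPM in iCarP+/Light+ rats) and Clec4d (59.5 to 100.3 CPM in MI and 444 to 868 CPM in iCarP+/Light+ rats), which sense microbial lipids, and 4 falling. The falls numbered 2 without MI rat 1, iCarP+/Light+ rat 2 or iCarP+/Light+ rat 4.

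Cd8a was 205, 64.7, 144 and 93.2 CPM in the MI rats and 50.5, 33.4, 45.3 and 14 CPM in the iCarP+/Light+ rats. Cd8a fell, with a log2 fold change of -1.83 (standard error 0.41, edgeR adjusted p = 0.00939). Cd8b was 19.4, 8.2, 18.3 and 9.63 CPM in the MI rats and 4.76, 3.69, 4.74 and 3.73 CPM in the iCarP+/Light+ rats. Cd8b fell, with a log2 fold change of -1.71 (standard error 0.32, edgeR adjusted p = 0.00268). These are the chains of the CD8 co-receptor. From Sham to MI, Cd8a had risen by 5.46 on the log2 scale and Cd3e by 2.07, and which cells carried these transcripts was not tested. Cd3e, a chain of the T-cell receptor complex, was 3.16 to 8.05 CPM in MI and 1.48 to 3.26 CPM in iCarP+/Light+ rats. Cd3e fell, with a log2 fold change of -1.25 (standard error 0.38, edgeR adjusted p = 0.0426). Of the lymphocyte list 3 of 17 fell and 0 rose, and of the MHC class II list 1 of 15, Cd1d1 (-0.75), fell. Cd1d1 is a class I-like molecule that presents lipids, so no gene of class II itself was called. Cd3e and Cd1d1 lost their calls in 6 and 4 of the 8 fits that left out a rat. Scaled by total counts alone, 10 of the lymphocyte list were lower, and in DESeq2 6. Cd74, the invariant chain of MHC class II, was at 238 to 424 CPM in MI and 177 to 337 CPM in iCarP+/Light+ rats. Cd74 had a log2 fold change of -0.54 (standard error 0.23, edgeR adjusted p = 0.161). Fcgr3a, an IgG receptor whose locus overlaps Fcgr2b, was 12.7 to 61.6 CPM in MI and 5.89 to 8.22 CPM in iCarP+/Light+ rats. Fcgr3a fell, with a log2 fold change of -1.98 (standard error 0.45, edgeR adjusted p = 0.00988). Smpd3, a neutral sphingomyelinase, was 17 to 37.2 CPM in MI and 4.71 to 9.61 CPM in iCarP+/Light+ rats. Smpd3 fell, with a log2 fold change of -1.79 (standard error 0.28, edgeR adjusted p = 0.000815). Tpbgl, which lies within Arrb1 in the table, was 9.66 to 23.1 CPM in MI and 1.83 to 6.57 CPM in iCarP+/Light+ rats. Tpbgl fell, with a log2 fold change of -1.76 (standard error 0.40, edgeR adjusted p = 0.0098). Cldn4, a tight junction claudin, was 4.14 to 13.4 CPM in MI and 0.665 to 3.05 CPM in iCarP+/Light+ rats. Cldn4 fell, with a log2 fold change of -1.99 (standard error 0.44, edgeR adjusted p = 0.00804). Rplp2, an acidic ribosomal protein with near-identical copies elsewhere, had the lowest fold change of the genes with a mean of 5 CPM or more but was uneven between MI rats, at 182, 80.1, 11 and 91.1 CPM in the MI rats and 7.33, 5.5, 10.8 and 6.12 CPM in the iCarP+/Light+ rats. Rplp2 fell, with a log2 fold change of -3.62 (standard error 0.87, edgeR adjusted p = 0.0138), and is uncertain.

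Hypoxia-inducible genes were higher in the treated infarct. Of the 30 tested targets 22 rose (73.3%, against 11.3% of all genes) and 0 fell, with log2 fold changes between 0.11 and 3.38. In the untreated infarct the same list was mixed, with 12 members higher and 6 lower than in Sham. Ddit4, an inhibitor of mTORC1 induced by low oxygen, was 44.9, 56.6, 63.8 and 52 CPM in the MI rats and 198, 334, 322 and 456 CPM in the iCarP+/Light+ rats. Ddit4 was higher, at a log2 fold change of 2.59 (standard error 0.23, edgeR adjusted p = 1.18e-05). Its Sham level was 49.5 to 75.5 CPM, which overlapped the MI rats and lay below all treated rats. Kdm3a, a histone demethylase induced by HIF, was 33.2, 41, 34.8 and 29.2 CPM in the MI rats and 82.5, 163, 156 and 193 CPM in the iCarP+/Light+ rats. Kdm3a rose by a log2 change of 2.10 (standard error 0.21, edgeR adjusted p = 3.12e-05). Edn1, which encodes the vasoconstrictor endothelin, was 5.27, 2.91, 3.86 and 3.88 CPM in the MI rats and 28, 22.7, 66.6 and 36.8 CPM in the iCarP+/Light+ rats. Edn1 rose, with a log2 fold change of 3.27 (standard error 0.33, edgeR adjusted p = 3.12e-05). The promoters of Ddit4 and Edn1 are shown with the core of the HIF-binding element, ACGTG read on either strand, in capitals. They are from GRCr8, minus strand, at chr20:28436988-28437287 and chr17:22666638-22666937.
Ddit4: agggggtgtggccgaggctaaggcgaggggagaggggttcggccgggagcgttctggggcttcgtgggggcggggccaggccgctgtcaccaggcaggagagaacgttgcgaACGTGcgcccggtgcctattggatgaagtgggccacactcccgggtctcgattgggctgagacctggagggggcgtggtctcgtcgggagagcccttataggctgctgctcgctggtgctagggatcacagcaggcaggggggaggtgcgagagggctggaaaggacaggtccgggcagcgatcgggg
Edn1: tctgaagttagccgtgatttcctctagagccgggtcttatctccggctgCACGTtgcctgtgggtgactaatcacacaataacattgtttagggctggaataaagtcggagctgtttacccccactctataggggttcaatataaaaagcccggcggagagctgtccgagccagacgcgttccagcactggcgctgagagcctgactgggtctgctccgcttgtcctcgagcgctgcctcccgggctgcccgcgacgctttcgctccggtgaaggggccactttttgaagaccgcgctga

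The core begins at position -138 in Ddit4 and -201 in Edn1, and the same window of Kdm3a held none. With each gene taken once, the core was found in 17 of 24 promoters of the hypoxia list that the RefSeq table holds. Over all 33469 promoter entries of that length, the share was 19.3%.

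Oxygen sensing and glucose use moved in the same direction. Of the HIF subunits and oxygen sensors 6 of 10 rose and 0 fell. The prolyl hydroxylase Egln3, which marks HIF for degradation and is itself a HIF target, was 34.8, 134, 113 and 58 CPM in the MI rats and 313, 659.8, 541 and 729 CPM in the iCarP+/Light+ rats. Egln3 was higher, at a log2 fold change of 2.72 (standard error 0.38, edgeR adjusted p = 0.000347). It had fallen with infarction (MI over Sham -1.81) from 256 to 324 CPM in Sham rats. Egln1 showed the same order, at 47.1 to 91.4 CPM in MI and 113 to 213 CPM in iCarP+/Light+ rats. Egln1 rose by a log2 change of 1.37 (standard error 0.23, edgeR adjusted p = 0.00138). Its Sham level was 129 to 164 CPM. Hif1a was 313, 291, 267 and 204 CPM in the MI rats and 412, 552, 487 and 769 CPM in the iCarP+/Light+ rats. Hif1a rose, with a log2 fold change of 1.05 (standard error 0.19, edgeR adjusted p = 0.00214). Hif3a was at 0 to 0.106 CPM in MI and 1.0 to 5.8 CPM in iCarP+/Light+ rats. It rose (edgeR adjusted p = 0.000592) on 2 reads in the MI libraries and 219 in the treated ones, a ratio of 135 at equal depth (95% exact counting interval 37.1 to 1126). This interval covers counting error only, and not the spread between rats.

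In the glycolysis list 18 of 25 rose (72.0%) and 0 fell. The glucose transporter Slc2a1 was 100.4, 177, 174 and 61.3 CPM in the MI rats and 583, 1194, 1273 and 1812 CPM in the iCarP+/Light+ rats. Slc2a1 was higher, at a log2 fold change of 3.25 (standard error 0.38, edgeR adjusted p = 9.17e-05). The lactate exporter Slc16a3 was 96.6, 177, 147 and 63.3 CPM in the MI rats and 479, 1018, 793 and 1243 CPM in the iCarP+/Light+ rats. Slc16a3 rose by a log2 change of 2.87 (standard error 0.34, edgeR adjusted p = 9.14e-05). Pdk3, a kinase that inhibits pyruvate dehydrogenase in mitochondria, was 22.2 to 26.5 CPM in MI and 44.3 to 90.2 CPM in iCarP+/Light+ rats. Pdk3 rose, with a log2 fold change of 1.51 (standard error 0.18, edgeR adjusted p = 8.33e-05). Pkm, the pyruvate kinase gene, was 1490.0 to 1963 CPM in MI and 2540.2 to 4418 CPM in iCarP+/Light+ rats. Pkm was higher, at a log2 fold change of 1.03 (standard error 0.17, edgeR adjusted p = 0.00105). Rat 1 was the lowest of the treated rats in Slc2a1 and Slc16a3, as it was for the neutrophil markers.

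**Figure D5:**
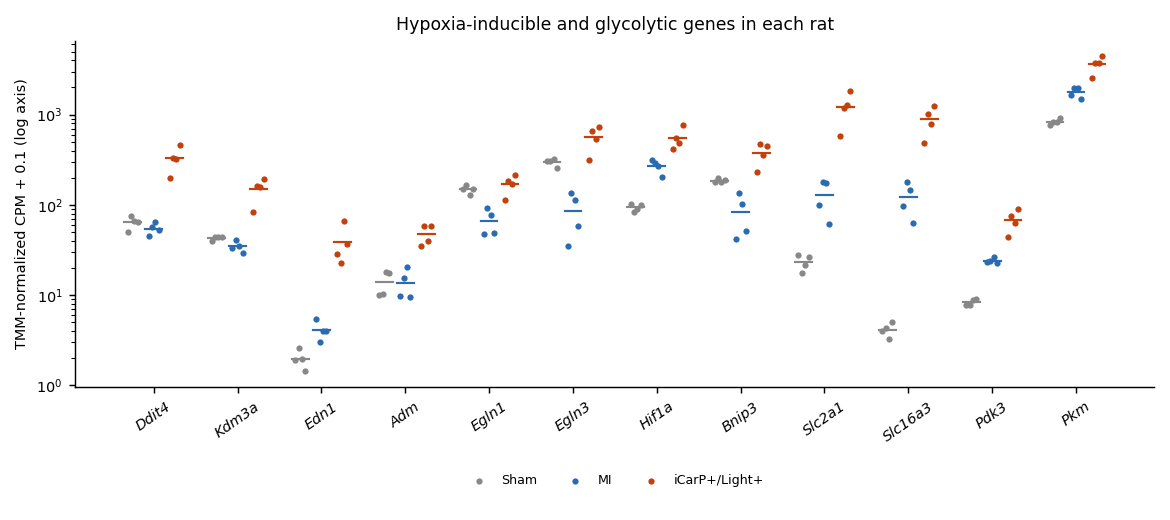
TMM-normalized CPM plus 0.1 on a log axis for each of the 12 rats, with a bar at the group mean. For all plotted genes the iCarP+/Light+ rats lie above the MI rats without overlap, and for Egln1, Egln3 and Bnip3 the MI rats lie below the Sham rats.

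The lists of red blood cell and platelet genes had median log2 fold changes of 1.38 and 1.40, with all tested members of both above 0, and those of blood vessel genes had medians near 0. Of the angiogenic ligands and receptors 5 of 22 rose, including Pgf (11.5 to 20 CPM in MI and 31.1 to 46.3 CPM in iCarP+/Light+ rats), Adm (9.31 to 20.2 CPM in MI and 34.4 to 58.4 CPM in iCarP+/Light+ rats) and Angpt1 (1.29 to 3.72 CPM in MI and 5.63 to 8.88 CPM in iCarP+/Light+ rats), and the median of the list was 0.02. None of the 16 tested endothelial identity genes passed the test in either direction. Cdh5, the cadherin of endothelial junctions, was at 176 to 296 CPM in MI and 286 to 315 CPM in iCarP+/Light+ rats. Cdh5 had a log2 fold change of 0.34 (standard error 0.14, edgeR adjusted p = 0.148). Of the red blood cell genes 4 of 10 rose, and this count ran from 1 to 7 when each rat was left out, with the lowest without iCarP+/Light+ rat 5 and the highest without MI rat 4. The globin Hba-a1 was 1508, 2700.1, 3613 and 1389 CPM in the MI rats and 5775, 3399, 8294 and 9417 CPM in the iCarP+/Light+ rats. Hba-a1 rose, with a log2 fold change of 1.55 (standard error 0.34, edgeR adjusted p = 0.00816). The groups overlapped, and the MI rats lay below the Sham level of 4411 to 5491 CPM. Reads of the near-identical α-globin genes cannot be told apart with certainty. Haemoglobin genes took 0.313 to 0.810% of the counts of MI rats and 0.621 to 1.69% of those of treated rats (exact permutation test, p = 0.0857). The part of blood left in the tissue in these results was not tested. Of the platelet list 2 of 5 rose, with Clec1b at 1.1 to 2.57 CPM in MI and 4.59 to 7.25 CPM in iCarP+/Light+ rats, which was not called without iCarP+/Light+ rat 5. Pf4 was at 66.8 to 234 CPM in MI and 83.3 to 223 CPM in iCarP+/Light+ rats. Pf4 had a log2 fold change of 0.08 (standard error 0.39, edgeR adjusted p = 0.923). Of the iron and heme list 6 of 17 rose and 1 fell, the rises including the phagosome iron exporter Slc11a1 (1.41) and the iron importer Slc11a2 (0.92). Ferritin light chain, Ftl1, was 1267 to 2515 CPM in MI and 2436 to 5561 CPM in iCarP+/Light+ rats. Ftl1 rose by a log2 change of 1.22 (standard error 0.26, edgeR adjusted p = 0.00595). Its groups overlapped and a microRNA locus lies within it. Coagulation genes rose in 6 of 16 cases, among them the urokinase receptor Plaur (58.6 to 94.4 CPM in MI and 235 to 441 CPM in iCarP+/Light+ rats), the tissue factor gene F3 (12.7 to 21.4 CPM in MI and 34.5 to 73.3 CPM in iCarP+/Light+ rats) and the inhibitor Tfpi2 (13.3 to 41.3 CPM in MI and 60.4 to 106 CPM in iCarP+/Light+ rats).

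Stress responses and the control of cell death were covered by several lists. Of the unfolded protein and integrated stress response list 10 of 19 rose and 0 fell. Trib3, a pseudokinase induced by endoplasmic reticulum stress, was 8.24, 6.96, 12.1 and 2.18 CPM in the MI rats and 40.5, 82.5, 85.2 and 102 CPM in the iCarP+/Light+ rats. Trib3 rose, with a log2 fold change of 3.39 (standard error 0.42, edgeR adjusted p = 0.000137). Sesn2 (1.91) and Ppp1r15a (1.54), which restores translation after stress, rose as well. Of the heat shock proteins 1 of 18 rose, the endoplasmic reticulum chaperone Hspa5. It was 822 to 1613 CPM in MI and 2064 to 3338 CPM in iCarP+/Light+ rats. Hspa5 was higher, at a log2 fold change of 1.31 (standard error 0.20, edgeR adjusted p = 0.000703). Antioxidant and NRF2 target genes rose in 11 of 21 cases. Sod2, the superoxide dismutase of mitochondria, was 307, 345, 429 and 239 CPM in the MI rats and 1579, 2673, 3175 and 3616 CPM in the iCarP+/Light+ rats. Sod2 rose by a log2 change of 3.07 (standard error 0.25, edgeR adjusted p = 6.07e-06). The Sham level was 475 to 514 CPM. Slc7a11, the cystine transporter that feeds glutathione synthesis, was 11.4, 4.69, 6.99 and 7.66 CPM in the MI rats and 54.4, 76.6, 95.7 and 87.4 CPM in the iCarP+/Light+ rats. Slc7a11 rose, with a log2 fold change of 3.35 (standard error 0.26, edgeR adjusted p = 4.4e-06). Thioredoxin reductase, Txnrd1, was 159 to 193 CPM in MI and 324 to 518 CPM in iCarP+/Light+ rats. Txnrd1 was higher, at a log2 fold change of 1.32 (standard error 0.14, edgeR adjusted p = 5.28e-05).

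Of the BCL2 family 8 of 15 rose and 0 fell, with members that restrain and members that promote death. Pmaip1, a promoter of apoptosis, was 18.7 to 33.8 CPM in MI and 59.7 to 102 CPM in iCarP+/Light+ rats. Pmaip1 rose by a log2 change of 1.70 (standard error 0.24, edgeR adjusted p = 0.000393). Bcl2a1, an inhibitor of it, was 40.6 to 97.2 CPM in MI and 160.0 to 268 CPM in iCarP+/Light+ rats. Bcl2a1 rose, with a log2 fold change of 1.76 (standard error 0.27, edgeR adjusted p = 0.000592). Bnip3, a mitophagy receptor and HIF target, was 41.5, 134, 102 and 51.4 CPM in the MI rats and 233, 469, 355 and 445 CPM in the iCarP+/Light+ rats. Bnip3 was higher, at a log2 fold change of 2.19 (standard error 0.33, edgeR adjusted p = 0.000647). Its relative Bnip3l was 90 to 140.5 CPM in MI and 189 to 312 CPM in iCarP+/Light+ rats. Bnip3l rose by a log2 change of 1.21 (standard error 0.18, edgeR adjusted p = 0.000481). Of the caspase and necroptosis list 5 of 20 rose, among them the caspase-8 inhibitor Cflar (25.8 to 32.2 CPM in MI and 77.1 to 162 CPM in iCarP+/Light+ rats), the NF-κB target Birc3 (12.9 to 23.2 CPM in MI and 107 to 235 CPM in iCarP+/Light+ rats) and the death receptor Fas (7.29 to 11.7 CPM in MI and 31.4 to 64.1 CPM in iCarP+/Light+ rats). Bax, which opens the outer mitochondrial membrane, was 44.5 to 77.2 CPM in MI and 46.9 to 67.3 CPM in iCarP+/Light+ rats. Bax had a log2 fold change of -0.06 (standard error 0.18, edgeR adjusted p = 0.866). Bcl2, which opposes it, was 3.75 to 6.81 CPM in MI and 3.38 to 5.26 CPM in iCarP+/Light+ rats. Bcl2 had a log2 fold change of -0.31 (standard error 0.22, edgeR adjusted p = 0.438). Neither passed the test.

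Of the p53 targets 8 of 17 rose. Gadd45a, a growth arrest gene, was 41.9 to 61.7 CPM in MI and 125 to 251 CPM in iCarP+/Light+ rats. Gadd45a rose by a log2 change of 2.07 (standard error 0.20, edgeR adjusted p = 2.59e-05). Immediate-early genes rose in 10 of 20 cases. Junb, an AP-1 subunit, was 167 to 257 CPM in MI and 711 to 1486 CPM in iCarP+/Light+ rats. Junb rose, with a log2 fold change of 2.42 (standard error 0.26, edgeR adjusted p = 4.71e-05). Ier3 was 42.8 to 89.5 CPM in MI and 242 to 449 CPM in iCarP+/Light+ rats. Ier3 was higher, at a log2 fold change of 2.45 (standard error 0.26, edgeR adjusted p = 4.29e-05). Of the dual-specificity phosphatases, which switch off MAP kinases, 4 of 11 rose, and these included Dusp1. It was 58.7, 102, 69.1 and 86.8 CPM in the MI rats and 248, 399, 444 and 479.6 CPM in the iCarP+/Light+ rats. Dusp1 rose by a log2 change of 2.31 (standard error 0.25, edgeR adjusted p = 4.89e-05). Of the autophagy and mitophagy list 9 of 19 rose and 0 fell, including the mitophagy receptor Optn (32.9 to 45.3 CPM in MI and 73.6 to 106 CPM in iCarP+/Light+ rats). Circadian genes were low in the untreated infarct, 11 of 16 below Sham, and 3 rose with treatment. Of these, Ciart, a repressor within the clock, was 2.54, 3.83, 3.69 and 1.33 CPM in the MI rats and 10.5, 21.2, 26.9 and 25.4 CPM in the iCarP+/Light+ rats. Ciart rose, with a log2 fold change of 2.88 (standard error 0.35, edgeR adjusted p = 0.000122). Its Sham level was 11.6 to 20.4 CPM. The hour of tissue collection, which moves clock genes, is not given in the sources used here. Of the interferon-stimulated genes 1 of 25 rose and 0 fell, with a median of 0.00076. That one was Ifit3, at 49.9, 156, 246 and 73.1 CPM in the MI rats and 227, 943, 759 and 1051 CPM in the iCarP+/Light+ rats, which was uneven in both groups. Ifit3 was higher, at a log2 fold change of 2.51 (standard error 0.72, edgeR adjusted p = 0.0352). It lost its call in 6 of the 8 fits that left out a rat.

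Some matrix and growth-factor genes were lower in the treated infarct. In the collagen list 3 of 21 fell and 0 rose, and the falls numbered 0 without MI rat 5, 1 without MI rat 1 and 1 without iCarP+/Light+ rat 2. They were Col6a1 (192 to 289.9 CPM in MI and 122 to 180.0 CPM in iCarP+/Light+ rats), Col6a2 (253 to 378 CPM in MI and 142 to 216 CPM in iCarP+/Light+ rats) and Col5a3 (130.3 to 196 CPM in MI and 87.6 to 125 CPM in iCarP+/Light+ rats), with log2 fold changes of -0.52, -0.63 and -0.59. Col3a1 was at 1127 to 1266 CPM in MI and 349.9 to 1104 CPM in iCarP+/Light+ rats. Col3a1 had a log2 fold change of -0.42 (standard error 0.27, edgeR adjusted p = 0.382). Col6a1 and Col5a3 lost their calls in 7 and 5 of the 8 fits that left out a rat, and Col6a2 in 1. Of the matricellular proteins 3 of 24 rose and 4 fell, and without MI rat 1 or iCarP+/Light+ rat 2 1 fell. Ccn2, the connective tissue growth factor and a target of TGF-β and YAP, was 448, 502, 529.8 and 468 CPM in the MI rats and 325, 288, 224 and 160.2 CPM in the iCarP+/Light+ rats. Ccn2 fell, with a log2 fold change of -0.97 (standard error 0.24, edgeR adjusted p = 0.015). All treated rats were still above the Sham level of 32.1 to 68.3 CPM. Thbs4 was 40.6, 13.1, 13 and 11.5 CPM in the MI rats and 7.01, 2.96, 8.26 and 7.24 CPM in the iCarP+/Light+ rats. Thbs4 fell, with a log2 fold change of -1.62 (standard error 0.43, edgeR adjusted p = 0.024). Thbs1, an activator of latent TGF-β, was 1470.2, 704, 721 and 813 CPM in the MI rats and 1666, 1904, 1662 and 3455 CPM in the iCarP+/Light+ rats. Thbs1 rose by a log2 change of 1.23 (standard error 0.32, edgeR adjusted p = 0.0209). Thbs4 was not called without MI rat 1 or iCarP+/Light+ rat 2, and Thbs1 lost its call in 4 of 8 such fits.

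Of the TGF-β and BMP pathway 6 of 24 rose and 1 fell, and 3 rose without MI rat 1, iCarP+/Light+ rat 2 or iCarP+/Light+ rat 5. The one that fell was the ligand Tgfb2 (-0.71), and the rises included 2 inhibitors of the pathway, Skil (18.4 to 32.3 CPM in MI and 46.3 to 124 CPM in iCarP+/Light+ rats) and Smad7 (30.5 to 39.3 CPM in MI and 46.8 to 69.2 CPM in iCarP+/Light+ rats). Tgfb1, the ligand with the highest counts of the list, was 243 to 303 CPM in MI and 235 to 294 CPM in iCarP+/Light+ rats. Tgfb1 had a log2 fold change of -0.10 (standard error 0.15, edgeR adjusted p = 0.714), which did not pass the test. Of the EGF-family ligands and ErbB receptors 1 of 10 rose and 1 fell. Erbb3, a neuregulin co-receptor, was 80.7, 56.6, 73.7 and 66.9 CPM in the MI rats and 24.6, 18.6, 23 and 27.6 CPM in the iCarP+/Light+ rats. Erbb3 fell, with a log2 fold change of -1.57 (standard error 0.23, edgeR adjusted p = 0.000445). The epidermal growth factor family ligand Ereg was 0.692 to 1.51 CPM in MI and 2.44 to 7.67 CPM in iCarP+/Light+ rats. Ereg rose by a log2 change of 2.23 (standard error 0.41, edgeR adjusted p = 0.00511). Of the fibroblast list 2 of 18, Dcn (170.4 to 322 CPM in MI and 298 to 469.6 CPM in iCarP+/Light+ rats) and Tnc (118 to 263 CPM in MI and 264 to 375 CPM in iCarP+/Light+ rats), rose and 1, Pi16 (26.8 to 45.8 CPM in MI and 12.9 to 27 CPM in iCarP+/Light+ rats), fell. Dcn, Tnc and Pi16 lost their calls in 6, 5 and 5 of the 8 fits that left out a rat, and with DESeq2's size factors 0 of this list rose. Of the smooth muscle and pericyte list 0 of 12 rose and 0 fell. Cell cycle genes, 22 of 26 of which infarction had raised, had a median of -0.49 with treatment, and 2 fell, Mcm6 (-0.45) and Aurkb (-0.81), against 1 that rose, Ccnd3 (0.50). The falls in this list were unstable, at 7 in DESeq2, 13 by total counts alone, 12 without iCarP+/Light+ rat 4 and 0 without MI rat 1.

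The sarcomere, respiratory chain and fatty acid genes, most of which infarction lowered, gave no call with treatment in edgeR on the TMM scale. None of the 21 tested sarcomere and Z-disc genes passed the test, with a median log2 fold change of -0.08 and a range of -0.35 to 0.93, and infarction alone had lowered 18 of them, with a list median of -3.07 over Sham. Scaled by total counts alone, 1 of these genes was called lower, and in DESeq2 1. Tnnt2, the cardiac troponin T gene, was 600.2, 1269, 1169 and 912 CPM in the MI rats and 1468, 1069, 682 and 454 CPM in the iCarP+/Light+ rats. Tnnt2 had a log2 fold change of -0.10 (standard error 0.31, edgeR adjusted p = 0.875). The 95% interval of this log2 fold change was -0.81 to 0.60, and the Sham level was 5116 to 5819 CPM. Treated rat 1 was above and rat 5 below all MI rats. Gja1, the connexin of ventricular gap junctions, was 130.1, 220.0, 135 and 207 CPM in the MI rats and 219, 223, 188 and 159 CPM in the iCarP+/Light+ rats. Gja1 had a log2 fold change of 0.19 (standard error 0.21, edgeR adjusted p = 0.626). Its 95% interval was -0.28 to 0.65. None of the 41 tested respiratory chain subunits of the nuclear genome and none of the 26 tested genes of fatty acid use passed the test, with medians of -0.10 and -0.08, after infarction had lowered 40 and 23 of them from Sham to MI. Atp5f1b, an ATP synthase subunit, was at 1433 to 1982 CPM in MI and 1167 to 1892 CPM in iCarP+/Light+ rats. Atp5f1b had a log2 fold change of -0.12 (standard error 0.16, edgeR adjusted p = 0.705). The 95% interval for it was -0.49 to 0.25.

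Of the calcium handling genes 2 of 16 rose, among them Sri (57 to 71.8 CPM in MI and 84.7 to 137 CPM in iCarP+/Light+ rats), the sorcin gene. Of the ion channels and connexins 1 of 17 rose, Kcnj2, the inward rectifier that sets the resting potential. It was 7.04, 14, 3.41 and 10.8 CPM in the MI rats and 26.8, 60.4, 51.1 and 82.5 CPM in the iCarP+/Light+ rats. Kcnj2 rose, with a log2 fold change of 2.65 (standard error 0.39, edgeR adjusted p = 0.000556). The wall stress genes gave no call in 14 tested. Nppa, the atrial natriuretic peptide gene, was 355 to 1067 CPM in MI and 864 to 1040.0 CPM in iCarP+/Light+ rats. Nppa had a log2 fold change of 0.30 (standard error 0.25, edgeR adjusted p = 0.506). Ankrd1, a stretch-induced Z-disc protein, was 2063 to 2947 CPM in MI and 1151 to 2620.3 CPM in iCarP+/Light+ rats. Ankrd1 had a log2 fold change of -0.44 (standard error 0.25, edgeR adjusted p = 0.309). Of the cardiac transcription factors Esrra (0.61) rose and Mef2c (-0.53) fell, among 15 tested, and they lost these calls in 2 and 5 of the 8 fits that left out a rat. The list of cytosolic ribosomal proteins (23 tested, median -0.15), which does not include Rplp2, had no call. Nor had the small epicardial (5), atrial (4) and skeletal muscle (5) lists. The proteasome list had 1 rise in 25 and the Wnt list 1 rise in 18, the secreted inhibitor Sfrp2 (1.34 to 3.13 CPM in MI and 3.38 to 8.46 CPM in iCarP+/Light+ rats). Scaled by total counts alone, 11 ribosomal protein and 12 proteasome genes were called lower. Sfrp2 lost its call in 4 of the 8 fits that left out a rat.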

How the data were processed

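Total RNA of LV tissue from 12 rats (4 each of Sham, MI and iCarP+/Light+, grouped by their labels) was sequenced after a NEBNext Ultra library preparation. The authors deposited raw counts of reads per gene, without normalization. The submitters' processing notes name HISAT2, featureCounts and rn6. The strand setting and annotation release are not given in the sources used here, so overlapping and antisense genes may share reads. In edgeR 4.0.16, filterByExpr (minimum count 10) kept 15101 genes, libraries were scaled by TMM, and the quasi-likelihood test used the fit of all 12 rats with one mean for each group. P-values were adjusted by Benjamini-Hochberg over all genes tested, with a threshold of 0.05. The 95% intervals use a t quantile with 9 degrees of freedom. For shares of counts, the exact permutation test (two-sided) went through 70 arrangements. Labels name no separate litters or batches, so p-values measure the spread between these rats.

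The 59 gene lists and all tests were chosen with earlier results of these data known. Genes named were the 12 highest and 12 lowest log2 fold changes among called genes (mean of 5 CPM or more, groups apart), 3 members of each list by smallest p and 1 by highest CPM, genes the study stains or names, and cell type markers. Some genes that this rule names are not reported here. Genes of a list named as its only calls were added after their values were seen. Tools were checked on simulated counts. Alternatives were DESeq2 1.42.0, limma-voom, other scalings and filters, a replicate block and leaving out each of the 8 rats. Loci with no gene type took 0.918% of counts. With 3 counts as the floor, a library can show 0.144 to 0.228 TMM-normalized CPM, which covers counting error only. The chi-square per gene between rats of a group was 13.9 to 114, where counting noise gives about 1. Promoter sequences are from RefSeq (GRCr8), and no coordinates were converted.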

Additional observations from a re-analysis of the deposited data

Results flagged for a closer look

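In the groups below, 1 rat stood apart for a gene named in the text: its gap to the nearest rat of its group was too large a part of the range of that group by Dixon's 95% critical value for 4 samples. Gaps are parts of the range of log2 CPM with a prior count of 2, so they differ from those of the CPM printed beside them. Of the 306 groups of 4 rats looked at, 16 had such a rat, where chance gives about 15.3. iCarP+/Light+ rat 5 had 6.54 CPM of Clec10a and the others of its group were at 9.83 to 10.3 CPM, a gap of 0.89 of the log2 range. For Cldn4, iCarP+/Light+ rat 2 was at 0.665 CPM and the other rats at 2.44 to 3.05 CPM (log2 gap 0.848). Hif3a was 0.106 CPM in MI rat 5 and at 0 in the rest of its group, with a log2 gap of 1. iCarP+/Light+ rat 1 had 99.2 CPM of Zc3h12a and the others of its group were at 193 to 213 CPM, a gap of 0.874 of the log2 range. For Irak3, iCarP+/Light+ rat 1 was at 52.8 CPM and the other rats at 117 to 128 CPM (log2 gap 0.899). Folr2 was 53.5 CPM in iCarP+/Light+ rat 5 and at 44.1 to 45.5 CPM in the rest of its group, with a log2 gap of 0.836. iCarP+/Light+ rat 1 had 3.26 CPM of Cd3e and the others of its group were at 1.48 to 1.63 CPM, a gap of 0.881 of the log2 range. For Col3a1, MI rat 3 was at 1266 CPM and the other rats at 1127 to 1140.2 CPM (log2 gap 0.9). Col3a1 was 349.9 CPM in iCarP+/Light+ rat 5 and at 972 to 1104 CPM in the rest of its group, with a log2 gap of 0.89. iCarP+/Light+ rat 5 had 142 CPM of Col6a2 and the others of its group were at 214 to 216 CPM, a gap of 0.975 of the log2 range. For Col6a1, iCarP+/Light+ rat 5 was at 122 CPM and the other rats at 171 to 180.0 CPM (log2 gap 0.871). Thbs4 was 40.6 CPM in MI rat 1 and at 11.5 to 13.1 CPM in the rest of its group, with a log2 gap of 0.899. iCarP+/Light+ rat 2 had 2.96 CPM of Thbs4 and the others of its group were at 7.01 to 8.26 CPM, a gap of 0.838 of the log2 range. For Skil, MI rat 4 was at 18.4 CPM and the other rats at 29.8 to 32.3 CPM (log2 gap 0.858). Ppp1r15a was 50.3 CPM in MI rat 5 and at 68.2 to 71.8 CPM in the rest of its group, with a log2 gap of 0.856. MI rat 3 had 45.3 CPM of Optn and the others of its group were at 32.9 to 33 CPM, a gap of 0.986 of the log2 range.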

How the results depend on the processing

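Counts of protein-coding genes called between iCarP+/Light+ and MI moved with the settings, and the cause was not tested unless given. Scaled by total counts alone, 1017 were higher and 2637 lower, since the TMM factors that differ between groups were left out. At a fold of 2 or more, 779 were higher and 73 lower, as this adds a condition. The genes called lower numbered 434 with DESeq2's size factors and 730 in DESeq2. With at least 10 counts in every rat, fewer genes could be tested, and 459 were lower, while 5 neutrophil genes were higher. When each rat was left out, 971 to 1807 genes were higher and 145 to 417 lower. Rats with the same replicate number did not deviate together (correlations of -0.12, 0.07 and -0.09 for the 3 numbers shared by MI and iCarP+/Light+ rats). Rats of these groups with different numbers gave -0.15 to 0.20. With so few shared numbers, this gave no sign of pairing and cannot exclude it. A replicate block gave 1021 higher and 136 lower genes, and of the genes named in the text 128 stayed on their side of the threshold and 25 lost their call. Resident macrophage members called lower were 1 at a fold of 2 and 2 with the replicate block, and 2 to 5 when each rat was left out. Of the sarcomere genes, 1 was lower by total counts alone and 1 in DESeq2. By total counts alone, log2 fold changes that had not passed the test changed sign for Cybb (-0.0051), F13a1 (-0.12), Pf4 (-0.18) and Gja1 (-0.081). With each rat left out, sign changes were found for F13a1 (-0.13 to 0.72), Pf4 (-0.35 to 0.55), Bax (-0.25 to 0.11) and Tnnt2 (-0.43 to 0.042), none of which passed the test. Over all settings that kept every rat, 1572 values of named genes stayed on their side of the threshold, 78 lost and 3 gained a call, and when each rat was left out these numbers were 1124, 87 and 3. No called gene named in the text changed direction. Depth limited the size of folds for genes near 0 in MI rats, among them Csf3, Il1a, Tnf and Hif3a.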

Other observations

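Markers of the remaining cell types give the makeup of the tissue around the muscle and the neutrophils, as summed CPM per rat. Fibroblast markers were 3139 to 3516 CPM among Sham rats, 940.5 to 1221 CPM among MI rats and 724 to 1445 CPM among treated rats, and endothelial markers were 1079 to 1265, 471 to 769 and 671 to 757. Both infarcted groups lay below Sham for these cell types and overlapped each other. Smooth muscle markers were 90.6 to 256 CPM among MI rats and 49.6 to 111 CPM among treated rats, with overlap and no marker called. Lymphocyte markers were 13.9 to 27.1 CPM among MI rats and 10.8 to 17.6 CPM among treated rats, and platelet markers were 74 to 237 and 92.6 to 235. Red blood cell markers were 994 to 3309 CPM among MI rats and 2779.6 to 8031 CPM among treated rats, with 3 of 4 called higher and overlapping sums. Atrial, mesothelial and skeletal muscle markers, which would point to tissue outside the ventricular wall, reached at most 13.8, 9.84 and 25 CPM in any infarcted rat.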
